A study of Homo sapiens with 6 samples.

Results

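Leflunomide was compared with its solvent, DMSO, in A375 cells, an established human malignant melanoma line, by GRO-seq (global nuclear run-on followed by sequencing), which reads the RNA that polymerases already on the DNA add when nuclei are allowed to resume transcription. The series holds 6 samples in 3 groups of 2: DMSO, 25 µM leflunomide and 25 µM A771726, its active metabolite, each applied for 48 h. The comparison described here uses the 4 samples of the first 2 groups, which share the cell line, medium and time and carry no engineered allele. The labels call the treatments duplicates and do not say whether the duplicates were separate cultures on separate days, so any spread between them may be technical. All genes in the deposited tables were taken, 1 entry per gene symbol (that of greatest gene body density averaged over the groups), which gave 12438 genes from 22442 entries.

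Leflunomide is a prodrug used against rheumatoid arthritis, and its metabolite inhibits dihydroorotate dehydrogenase, the mitochondrial enzyme of de novo pyrimidine synthesis that supplies the uridine and cytidine nucleotides needed for RNA. RNA polymerase II often pauses just downstream of the start site and enters the gene body when the kinase P-TEFb releases it. The promoter density in GRO-seq reads paused and initiating polymerase, the gene body density reads elongating polymerase, and their quotient, the traveling ratio, is higher where more polymerase sits at the promoter relative to the gene body. The series title links HEXIM1, an inhibitor of P-TEFb, to the same drug class in melanoma.

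The deposited densities are the authors' means over the 2 libraries of a group. Their unit is unnamed in the material used here. A log2 change below is the log2 ratio of the leflunomide mean to the DMSO mean after adding a pseudocount (0.0022 for gene bodies, 0.01735 for promoters), and "relative to the median gene" means after subtracting the median change of all genes compared. Single library values were recovered from the means where the mean promoter density, gene body density and ratio of a gene allowed 1 solution. The 2 values of a group are given in no order, and a group pair is said to lie apart when both libraries of one group exceed both of the other. The recovered promoter reads summed to 33287 and 18879 in the DMSO libraries and to 47149 and 36610 with leflunomide. These sums cover the recovered entries alone and are not library depths. Of 11 melanocyte and melanoma markers in the tables, 9 passed the filter on low values. Of these 9, 7 lay above the median gene, with a median relative change of 0.17. At least 2-fold higher relative to the median gene was 1 (2.25% of all genes), and 0 were lower. In 6 recovered markers the groups lay apart at 0 in either direction. SOX10, the neural crest transcription factor, had gene body densities of 0.327 and 0.330 in DMSO and 0.321 and 0.339 with leflunomide, so this 1 marker was measured at about the same level in all 4 libraries. The pigment antigen gene MLANA lay below the filter and PMEL, a melanosome protein gene, had means of only 0.0103 and 0.0223. None of the 3 fibroblast and 4 endothelial markers passed the filter, while of the other lineages KRT14, KRT10, SFN and CD68 did.

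Over all genes, gene body density differed little between leflunomide and DMSO. The median log2 change over 8706 genes past the filter was −0.06, with 25% of genes below −0.35 and 25% above 0.22. A difference of 2-fold or more relative to the median gene was seen upward at 196 genes (2.25%) and downward at 339 (3.89%). As deposited the counts were 160 (1.84%) and 391 (4.49%). In the 5050 genes with both groups recovered, the leflunomide libraries lay above both DMSO libraries at 697 (13.8%) and below them at 1046 (20.7%). With 2 libraries in each group, many genes lie apart by chance alone, so lying apart at a single gene is weak evidence of a difference. limma called 0 of 4285 gene bodies at an adjusted p of 0.05, and its smallest adjusted p was 0.551. Without adjustment 57 (1.33%) were higher and 138 (3.22%) lower at p under 0.05. No single gene below therefore passed the test, and gene groups are described by counts and medians beside these shares of all genes. No DMSO traveling ratio above 7.5 is among the deposited entries, whereas 13.3% of entries exceed it with leflunomide. How far this limit shapes the gene body shares, their trend with density and the gene lists below was not tested.

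Among highly transcribed genes the median gene body change was lower and more genes lay apart in the lower direction. In 5 bins of equal size by mean gene body density, the median change relative to the median gene was 0.08, 0.05, 0.03, −0.02 and −0.11 from the lowest to the highest bin. The share of recovered genes whose leflunomide libraries lay below both DMSO libraries went from 14.3% in the lowest bin to 27.6% in the highest. Genes at least 2-fold lower did not become more frequent, at 93, 77, 63, 50 and 56 from the lowest to the highest bin. Those at least 2-fold higher numbered 44, 53, 46, 34 and 19. Cytosolic ribosomal protein genes make up 72 of the 1742 genes with the highest density, and the other 1670 had a median of −0.10, with 61.0% of genes below the median gene. Ribosomal protein, histone and small nucleolar RNA host genes had lower medians than these, as the plot of level against change shows.

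**Figure D1:**
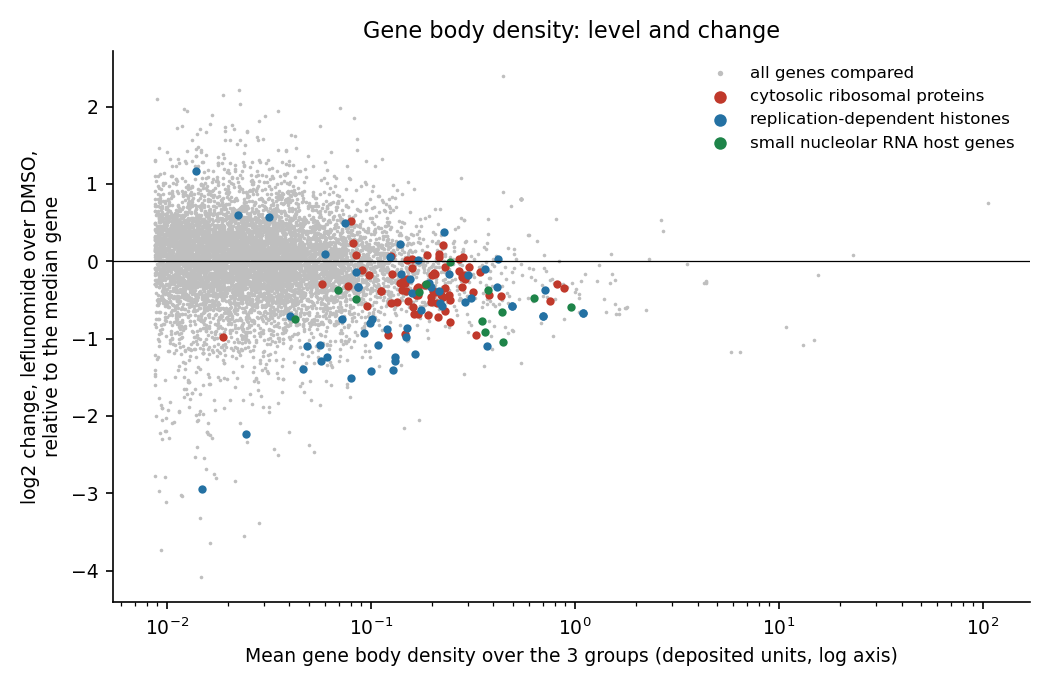
Each point is 1 gene; the x axis is the mean gene body density over the 3 groups of the series on a log scale, and the y axis is the log2 change of gene body density, leflunomide over DMSO, relative to the median gene. Red points are cytosolic ribosomal protein genes (62 of 74 below 0), blue points histone genes (48 of 58 below 0) and green points small nucleolar RNA host genes (13 of 13 below 0).

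Of the 33 gene lists examined, replication-dependent histones had the lowest median gene body change relative to the median gene (−0.58). They were followed by small nucleolar RNA host genes (−0.49), H/ACA and Cajal body RNAs (−0.43), cytosolic ribosomal proteins (−0.35) and olfactory receptors (−0.29, of which 17 passed the filter). The highest medians belonged to p53 targets (0.27) and DNA replication genes (0.20). Over the 7 p53 targets with libraries told apart the median was 0.23, and it was 0.027 without leflunomide library 1 and 0.067 without DMSO library 2. For comparison, the middle 50% of all genes spans −0.30 to 0.28. Lists with a median near 0 could be wider than this, as with mitochondrial ribosomal proteins (−0.59 to 0.30) and microRNA genes (−0.61 to 0.41).

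**Figure D2:**
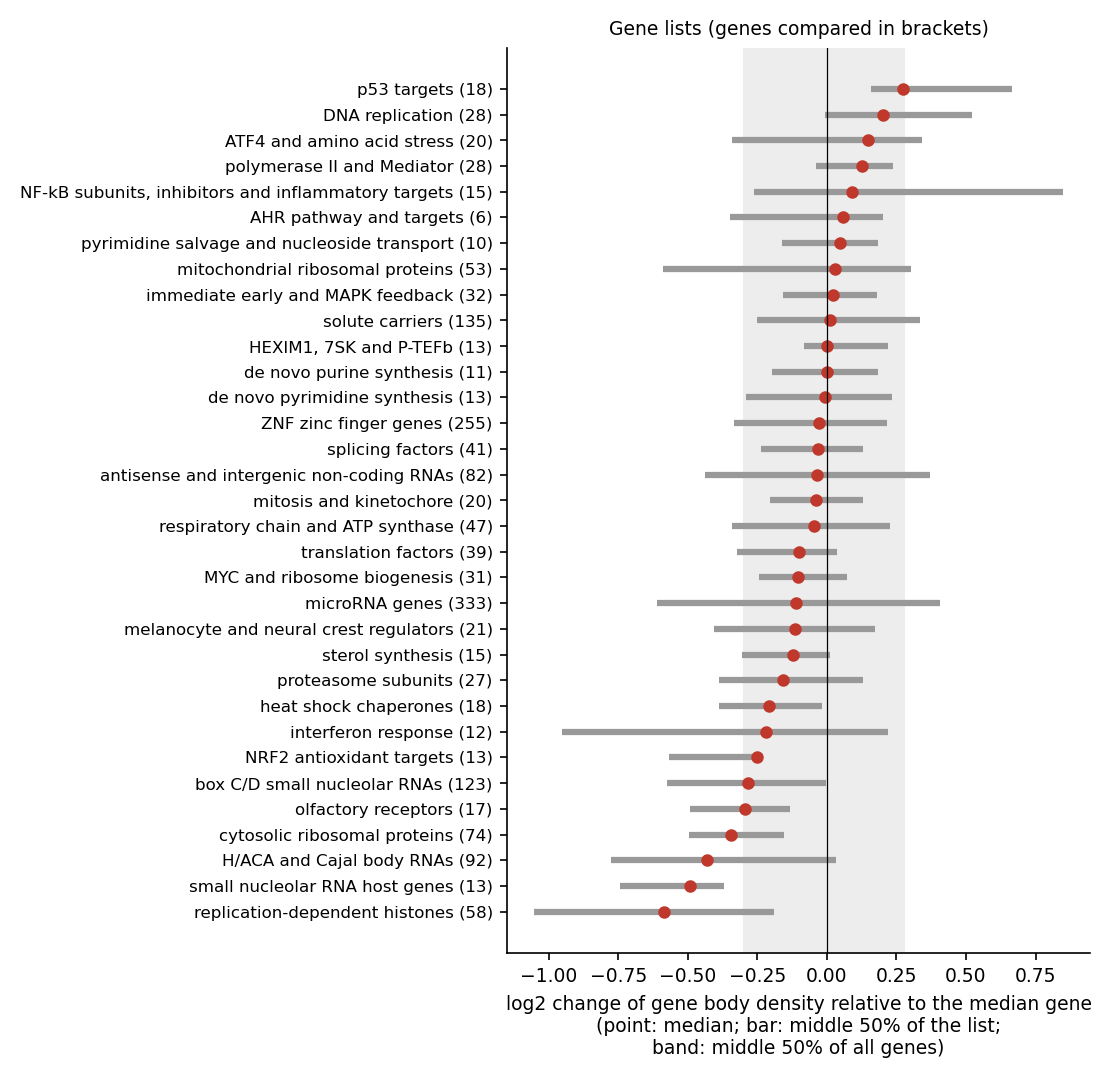
Median (point) and middle 50% (bar) of the log2 change of gene body density relative to the median gene, leflunomide over DMSO, for gene lists with the number of genes past the filter in brackets; the grey band spans the middle 50% of all genes. Histones, small nucleolar RNA host genes, H/ACA RNAs and cytosolic ribosomal proteins lie lowest, p53 targets and DNA replication genes highest.

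The cytosolic ribosomal protein genes, which encode the structural proteins of the ribosome and are among the most strongly transcribed genes of a growing cell, were lower as a group by a modest and even amount. Of 76 in the tables, 74 passed the filter, and 62 of these lay below the median gene and 12 above it, with a median of −0.35 and the middle 50% between −0.49 and −0.15. None was 2-fold lower or higher relative to the median gene. In 48 members with recovered libraries the leflunomide values lay below both DMSO values at 27 (56.25%, against 20.7% of all genes) and above them at 0. In the highest bin of gene body density these shares were 27.6% and 9.03% of recovered genes. Their promoters were also lower, with 58 of 75 below the median gene and a median of −0.47. This promoter median was −0.25 with no filter on low values and −0.35 over 28 genes with libraries told apart. In those 28 it ranged from −0.71 (without DMSO library 1) to −0.25 (without DMSO library 2).

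RPL19, a protein of the large ribosomal subunit, had gene body densities of 0.297 and 0.195 in DMSO and 0.152 and 0.0916 with leflunomide. The limma log2 change was −1.02 (SE 0.42, unadjusted p = 0.0424, adjusted p = 0.999), and the groups did not overlap. RPLP0, the core protein of the ribosomal stalk, had 0.342 and 0.208 against 0.147 and 0.178. At RPL23, 0.3184 and 0.3499 in DMSO stood against 0.240 and 0.168, although its promoter mean was higher with leflunomide (0.391 and 0.627). At these 3 genes both treated libraries lay below both controls. RPL26L1, a weakly transcribed paralog of RPL26, had 0.0262 and 0.0287 in DMSO and 0.0192 and 0.0052 with leflunomide.

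Some ribosomal protein genes did not share the direction. RPS13 had 0.111 and 0.0487 in DMSO and 0.0974 and 0.124 with leflunomide, so its groups overlapped at a relative change of 0.52. RPS16 (0.267 and 0.200 against 0.235 and 0.229) and RPS19 (0.222 and 0.220 against 0.233 and 0.217) also overlapped and lay near the median gene. RPL21 and RPS15 lay above it by 0.21 and 0.24. FAU, which encodes a ribosomal protein fused to a ubiquitin-like domain and was not a list member by its symbol, had 0.156 and 0.0803 in DMSO and 0.0438 and 0.0264 with leflunomide, a log2 change of −1.69.

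Many ribosomal protein genes start transcription at a C within a run of pyrimidines, the feature known as a terminal oligopyrimidine tract. The start regions of 4 members are printed to let the presence of a tract be set against the change of the gene; each runs from 45 bases before the RefSeq start to 15 bases from it (GRCh38.p14), and capitals mark a run of at least 6 pyrimidines that begins with C after a purine within 5 bases of the start. RPS12 lies at chr6:132814524-132814583 (plus strand), RPLP1 at chr15:69452773-69452832 (plus), RPLP0 at chr12:120201097-120201156 (minus) and RPL19 at chr17:39200238-39200297 (plus).
RPS12: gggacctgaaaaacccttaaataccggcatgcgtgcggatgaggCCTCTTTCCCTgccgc
RPLP1: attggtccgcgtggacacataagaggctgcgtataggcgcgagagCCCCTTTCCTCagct
RPLP0: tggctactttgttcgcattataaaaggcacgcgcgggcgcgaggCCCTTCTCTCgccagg
RPL19: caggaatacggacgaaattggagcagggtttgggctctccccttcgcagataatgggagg
By this rule a tract was found in 25 of 60 ribosomal protein genes with a start region in the table (41.7%), against 8.20% of 6438 genes compared and 7.26% of all 27305 start regions. The 25 genes with a tract had a median relative change of −0.35 and the 35 without had −0.31, and among other genes the medians with and without were both 0.02. RPL19, with no tract by the rule, was lower by more than RPS12 (0.404 and 0.348 in DMSO against 0.299 and 0.273 with leflunomide), which has one. The printed RPL19 region does hold a pyrimidine run that begins with C after a purine. That run begins more than 5 bases before the annotated start, so its exclusion rests on the distance rule and the annotation. The medians with and without a tract thus lay close together, and their difference was not tested.

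Other genes of the translation machinery were less shifted. Of 39 translation factor genes, 28 lay below the median gene, with a median of −0.10, and in 10 of 35 recovered members the groups lay apart in the lower direction (20.7% of all genes) and in 0 in the higher (13.8%). The elongation factor subunit EEF1G had 0.161 and 0.134 in DMSO and 0.0913 and 0.0647 with leflunomide. EEF1A1, which delivers aminoacyl-tRNA to the ribosome, had 0.339 and 0.258 against 0.187 and 0.200, and its exchange factor EEF1B2 had 0.0653 and 0.0930 against 0.0345 and 0.0523. The groups lay apart at each of these elongation factor genes. By the rule used above, a tract was found in 3 of 29 translation factor genes with a start region (10.3%, against 8.20% of genes compared). A link of the tract to the change was not tested. Mitochondrial ribosomal proteins, which serve the separate ribosome of the mitochondrion, were spread around the median gene: 27 lay above and 26 below, with a median of 0.03. Among them MRPL32 had 0.0288 and 0.0418 in DMSO and 0.0101 and 0.0137 with leflunomide, whereas MRPS6 had 0.0851 and 0.0717 against 0.150 and 0.137. In 46 recovered members 13 were lower in both libraries and 9 higher, against 20.7% and 13.8% of all genes. Relative to the median gene 4 of the 53 were at least 2-fold lower (3.89% of all genes) and 1 higher (2.25%), and 7 of 42 fitted by limma were lower at an unadjusted p under 0.05 (3.22% of all genes). Respiratory chain and ATP synthase genes had a median of −0.05, with 22 of 47 above the median gene, and 31 genes of ribosome biogenesis had −0.10.

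**Figure D3:**
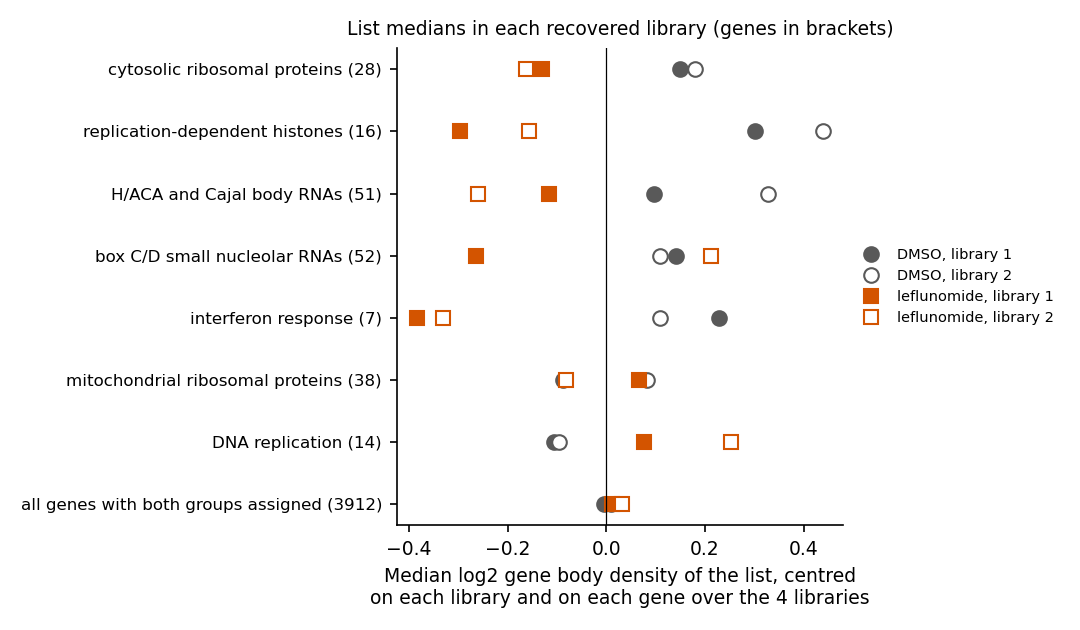
Median log2 gene body density of gene lists in each of the 4 recovered libraries, centred on each library and on each gene over the 4 libraries, with the number of genes in brackets; circles are DMSO and squares leflunomide, filled for library 1 and open for library 2. Both leflunomide libraries lie below both DMSO libraries for ribosomal proteins, histones, H/ACA RNAs and the 7 interferon genes, and above them for DNA replication genes. For box C/D RNAs they lie on either side of the DMSO libraries, and for mitochondrial ribosomal proteins between them.

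Small nucleolar RNA host genes are transcribed at high rates from promoters like those of ribosomal protein genes, and their introns yield the RNAs that guide chemical modification of ribosomal RNA. All 13 genes listed under an SNHG symbol or as GAS5 lay below the median gene, with a median of −0.49 for gene bodies and −0.79 for promoters. SNHG3 had gene body densities of 0.462 and 0.609 in DMSO and 0.305 and 0.296 with leflunomide, with promoter means of 1.99 and 1.16. SNHG4 had 0.232 and 0.234 against 0.161 and 0.178. The authors' means were 0.774 and 0.358 at SNHG5, 0.564 and 0.286 at SNHG12 and 1.41 and 0.896 at GAS5, whose promoter means were 3.68 and 2.12. In the 6 recovered members the groups lay apart in the lower direction at 4 (20.7% of all genes, 27.6% of the highest density bin) and in the higher direction at 0 (13.8% and 9.03%). SNHG5 was lowest (−1.05 relative to the median gene) and SNHG6 highest (−0.01). A pair of host genes carried older symbols and were not list members: C17orf76-AS1, now SNHG29, had means of 0.625 and 0.482, while LINC00338, now SNHG20, was higher, with 0.0460 and 0.0310 in DMSO and 0.0506 and 0.0869 with leflunomide.

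The small nucleolar RNA genes themselves lie inside introns of such hosts and of ribosomal protein and other genes, so that their reads cannot be told apart from those of the host. Of 92 H/ACA and Cajal body RNA genes, whose products guide pseudouridylation or modify spliceosomal RNAs, 66 lay below the median gene, with a median of −0.43. Of 67 recovered genes 27 were apart in the lower direction (20.7% of all genes, 27.6% of the highest density bin) and 5 in the higher (13.8% and 9.03%). SNORA68 had 0.649 and 0.407 in DMSO and 0.163 and 0.205 with leflunomide, and SNORA64 had 0.616 and 0.556 against 0.301 and 0.271. SCARNA11 had 0.0741 and 0.231 against 0.0440 and 0.0398, so the size of its change rests on 1 DMSO library. In the other direction, SNORA71C had 0.116 and 0.0989 against 0.165 and 0.215 and SNORA7A had 0.127 and 0.0879 against 0.183 and 0.171. Of 123 box C/D RNA genes, which guide ribose methylation, 93 lay below the median gene, with a median of −0.28. That result depended on 1 library: in the 52 genes with libraries told apart, the list median was −0.26 in leflunomide library 1 and 0.21 in library 2, against 0.14 and 0.11 in DMSO, and without leflunomide library 1 the list change was 0.02.

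**Figure D4:**
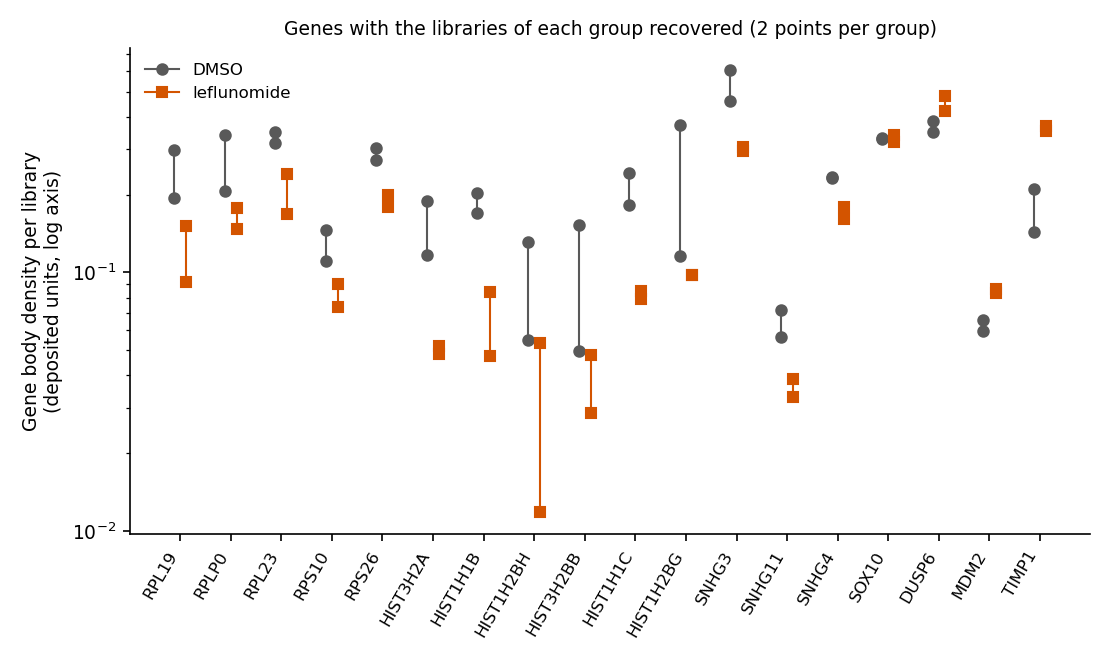
Gene body density in each recovered library on a log scale for ribosomal protein, histone and small nucleolar RNA host genes and for SOX10, DUSP6, MDM2 and TIMP1; grey circles are the 2 DMSO libraries and orange squares the 2 leflunomide libraries, joined within a group. Both leflunomide points lie below both DMSO points from RPL19 through SNHG4, which were picked as examples after their values were seen and do not stand for their lists. The 2 groups lie on each other at SOX10, and leflunomide lies higher at DUSP6, MDM2 and TIMP1.

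Replication-dependent histone genes supply the histones that package newly made DNA, and their transcription is confined largely to S phase. Their list had the median farthest from the median gene. Of 58 genes, 48 lay below the median gene, with a median of −0.58, and 15 were at least 2-fold lower relative to it (3.89% of all genes) and 1 at least 2-fold higher (2.25%). In 39 recovered genes the groups lay apart in the lower direction at 24 (61.5%, against 20.7% of all genes) and in the higher direction at 0 (13.8%). For the highest bin of gene body density, where 47 of the 58 would fall, these shares were 27.6% and 9.03%. Leaving out each library in turn gave list medians from −0.79 to −0.39 over 16 genes, the latter without DMSO library 2. In a bulk library, fewer cells transcribing a gene and less transcription per cell cannot be told apart.

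All 5 histone classes held lower members. HIST1H1B (NM_005322), a linker histone H1 gene, had 0.203 and 0.170 in DMSO and 0.0477 and 0.0840 with leflunomide. The H1 gene HIST1H1C had 0.242 and 0.182 against 0.0849 and 0.0789. Both treated values lay well below both controls, at log2 changes of −1.47 and −1.35 (limma SE 0.37 for each, unadjusted p = 0.00346 and 0.00752, adjusted p = 0.989 and 0.999). HIST3H2A (NM_033445), an H2A gene outside the main clusters, had 0.189 and 0.117 against 0.0521 and 0.0485 and the smallest limma p of the list (0.00295). HIST2H2AC, another H2A gene and one of the most transcribed members, had 0.7496 and 0.4772 against 0.240 and 0.307. HIST1H2BM (H2B) had 0.142 and 0.0992 against 0.0524 and 0.0430, and HIST1H3H (H3) had 0.313 and 0.243 against 0.0797 and 0.149. HIST1H4A (H4) had 0.122 and 0.0703 against 0.0294 and 0.0557. At each the libraries lay apart. HIST1H1A had the largest change, with means of 0.0416 and 0.00325. HIST1H2BF, with 0.0199 and 0.0976 in DMSO and 0.0072 and 0.0133 with leflunomide, owed much of its change to 1 DMSO library.

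Of the 58 histone genes, 10 lay above the median gene. The H4 gene HIST1H4E had 0.132 and 0.333 in DMSO and 0.321 and 0.258 with leflunomide, HIST1H4I had 0.111 and 0.0406 against 0.0678 and 0.140, and the H1 gene HIST1H1E had 0.528 and 0.358 against 0.412 and 0.460. At these 3 genes the groups overlapped. HIST3H3 and HIST1H1T, which encode testis variants, were higher in the means (0.00985 and 0.0237, and 0.0330 and 0.0479), and HIST3H3 was the 1 member at least 2-fold higher. HIST2H2AA3 and HIST2H2AA4, which are duplicated copies, carry identical values, and the reason was not tested.

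Histone promoters did not follow the gene bodies. The promoter median relative to the median gene was −0.19, with 24 of 57 above it, and at HIST1H1C the promoter means were 0.655 in DMSO and 0.737 with leflunomide and at HIST2H2AC 1.10 and 1.21. The traveling ratio was accordingly higher at 39 of 51 histone genes relative to the median gene, with a median of 0.56. At HIST1H1B it was 1.63 and 5.03, and at HIST1H3H 2.82 and 8.05. At least 2-fold higher ratios relative to the median gene were found at 18 of the 51, against 21.2% of all genes. The sign of the promoter median depended on single libraries, being 0.29 without leflunomide library 1, 0.00 without leflunomide library 2 and 0.03 with no filter on low values. The deposited entries hold no DMSO ratio above 7.5, whereas 13.3% of entries exceed that value with leflunomide. With the same limit on the leflunomide ratio the histone median was 0.77 over 46 genes, while that of all genes, as deposited, went from 0.27 to 0.05.

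The start regions of 5 of these genes are shown because clustered histone genes share short promoter elements. Each gives the 120 bases before the RefSeq start on GRCh38.p14, 5′ to 3′ on the strand of the gene, and capitals mark CCAAT in either orientation (CCAAT or ATTGG) and TATAAA or TATATA between 40 and 16 bases before the start. HIST1H1B lies at chr6:27867589-27867708 (minus), HIST1H1C at chr6:26056471-26056590 (minus), HIST2H2AC at chr1:149886798-149886917 (plus), HIST1H3H at chr6:27809931-27810050 (plus) and HIST3H2A at chr1:228457874-228457993 (minus).
HIST1H1B: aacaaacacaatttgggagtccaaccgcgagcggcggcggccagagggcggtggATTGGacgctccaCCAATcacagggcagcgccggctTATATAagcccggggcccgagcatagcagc
HIST1H1C: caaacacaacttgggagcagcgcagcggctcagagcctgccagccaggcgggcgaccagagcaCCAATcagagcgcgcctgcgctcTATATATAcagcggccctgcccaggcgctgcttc
HIST2H2AC: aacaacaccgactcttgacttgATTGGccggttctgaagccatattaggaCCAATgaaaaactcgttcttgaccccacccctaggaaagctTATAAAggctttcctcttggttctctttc
HIST1H3H: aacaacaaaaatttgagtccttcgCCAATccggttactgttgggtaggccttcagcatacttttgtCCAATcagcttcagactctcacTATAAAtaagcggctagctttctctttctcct
HIST3H2A: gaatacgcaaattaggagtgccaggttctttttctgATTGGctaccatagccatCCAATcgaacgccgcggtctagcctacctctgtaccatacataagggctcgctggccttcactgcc
CCAAT letters in either orientation lay within the 250 bases before the start in 48 of 54 histone genes (88.9%). The same held for 36.0% of the genes compared and 33.0% of all start regions. TATA letters lay in the window in 34 of the 54 (63.0%), against 3.09% and 3.39%. The 34 histone genes with TATA letters had a median relative change of −0.61 and the 20 without had −0.53. A match is a description of letters, and HIST3H2A, with no TATA letters in the window, was among the lowest members.

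DNA replication genes, which also act in S phase, had a median on the other side. Of 28 past the filter 21 lay above the median gene, with a median of 0.20 and none at least 2-fold higher or lower, and of 19 recovered members the groups lay apart in the higher direction at 5 and in the lower direction at 3 (13.8% and 20.7% of all genes). At an unadjusted limma p under 0.05, 0 of 18 fitted members were higher and 2 lower. MCM10, which helps to activate the replicative helicase, had 0.0106 and 0.0060 in DMSO and 0.0179 and 0.0138 with leflunomide. The clamp loader subunit RFC5 had 0.0547 and 0.0274 against 0.0765 and 0.0553, and RPA1, the large subunit of the single-strand binding protein, had 0.0109 and 0.0091 against 0.0150 and 0.0140. Leflunomide was higher in both libraries at these 3 genes. The helicase subunit genes MCM5 (0.0291 and 0.0184 against 0.0123 and 0.0108) and MCM2 (0.0442 and 0.0420 against 0.0359 and 0.0228) and the clamp loader gene RFC4 (0.136 and 0.123 against 0.0763 and 0.0673) were lower in both. The mitosis and kinetochore list lay at −0.04, with 9 of 20 members above the median gene.

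Genes of pyrimidine synthesis, the pathway the drug acts on, had no common direction: 6 of 13 lay above the median gene, with a median of −0.01. DHODH, which encodes the drug's target, had 0.0136 and 0.0113 in DMSO and 0.0204 and 0.0186 with leflunomide, and its promoter had 1 read in each DMSO library and 6 and 10 with leflunomide. Its groups did not overlap in either region, and limma's unadjusted p for the gene body was 0.249 (adjusted p = 0.999). UMPS, the enzyme that turns orotate, the product of dihydroorotate dehydrogenase, into UMP, had 0.0510 and 0.0808 in DMSO and 0.0318 and 0.0478 with leflunomide. NME2, a nucleoside diphosphate kinase gene, had 0.0933 and 0.128 against 0.0733 and 0.0826. Both were lower in both libraries. CAD, which encodes the enzyme of the first steps, had 0.0505 and 0.0354 against 0.0458 and 0.0519, and TYMS, thymidylate synthase, had 0.0662 and 0.0772 against 0.0635 and 0.0813, so these overlapped. Purine synthesis genes had a median of 0.00 and pyrimidine salvage genes one of 0.05. In one-carbon metabolism, which feeds both, SHMT2 had 0.101 and 0.111 in DMSO and 0.0645 and 0.0615 with leflunomide, while MTHFD2 had 0.0284 and 0.0064 against 0.0321 and 0.0279 and overlapped.

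The transcription machinery was close to the median gene in gene body density. Polymerase II, Mediator and general factor genes had a median of 0.12, with 19 of 28 above the median gene. POLR2A, the largest polymerase subunit, had 0.121 and 0.0900 in DMSO and 0.115 and 0.112 with leflunomide, and POLR2E, a subunit shared by the 3 polymerases, had 0.0479 and 0.0542 against 0.0416 and 0.0216. The 13 genes of the HEXIM1, 7SK RNA and P-TEFb list had a gene body median of 0.00. CCNT1, the cyclin partner of the P-TEFb kinase, had 0.0540 and 0.0455 against 0.0315 and 0.0407, lower in both libraries, while WHSC2, which encodes the pausing factor subunit NELF-A, had 0.0225 and 0.0203 against 0.0392 and 0.0309, higher in both. The promoter median of this list was −0.53, with 4 of 13 above the median gene. In 11 recovered members the promoter libraries lay apart in the higher direction at 4 (15.9% of all promoters) and in the lower at 2 (10.4%). The traveling ratio median was −0.69, with 4 of 11 at least 2-fold lower (20.8% of all genes) and 2 higher (21.2%). Splicing factor genes lay at −0.03 for gene bodies, with 18 of 41 above, but at −0.53 for promoters, with 12 of 41 at least 2-fold lower (19.7% of all promoters) and 2 at least 2-fold higher (22%).

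Among stress responses the chaperone genes tended to be lower. Of 18 heat shock genes 14 lay below the median gene in gene body density (median −0.21) and 17 in promoter density (−0.45). The gene body median was −0.042 over the 9 genes with libraries told apart and −0.25 to −0.048 when each library was left out. The promoter median was −0.22 with no filter on low values and −0.77 over 10 genes told apart. HSP90AB1 (NM_007355), the constitutive cytosolic HSP90 gene, had 0.474 and 0.451 in DMSO and 0.218 and 0.281 with leflunomide, a log2 change of −0.88 (limma SE 0.33, unadjusted p = 0.0268, adjusted p = 0.999). HSP90AA1, its inducible partner, had 0.211 and 0.236 against 0.144 and 0.180, and DNAJB9, a cochaperone of the endoplasmic reticulum, 0.0635 and 0.0679 against 0.0425 and 0.0267. At each the groups did not overlap. HSPA5, the main chaperone of the same compartment, lay on the other side, with 0.0866 and 0.0986 in DMSO and 0.107 and 0.131 with leflunomide.

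Of 13 NRF2 antioxidant targets 10 lay below the median gene, with a median of −0.25. TALDO1, of the pentose phosphate pathway, had 0.0492 and 0.0507 in DMSO and 0.0258 and 0.0322 with leflunomide, and the quinone reductase gene NQO1 had 0.139 and 0.110 against 0.0892 and 0.0853. Both were lower in both libraries, whereas NFE2L2, which encodes NRF2 itself, had 0.0420 and 0.0374 against 0.0444 and 0.0445. Only 5 members were recovered in both groups, so this list rests mainly on the authors' means.

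Interferon response genes split. Of 12 past the filter 3 were at least 2-fold lower relative to the median gene (3.89% of all genes) and 0 at least 2-fold higher (2.25%), and 5 lay above it. ISG20 (NM_002201), an antiviral exonuclease gene, had 0.0511 and 0.0559 in DMSO and 0.0192 and 0.0242 with leflunomide, a log2 change of −1.22 (limma SE 0.33, unadjusted p = 0.00662, adjusted p = 0.999). IFITM3, which blocks viral entry, had 0.0660 and 0.0791 against 0.0370 and 0.0343, and DTX3L, a ubiquitin ligase gene, had 0.0339 and 0.0460 against 0.0199 and 0.0150. At these 3 both treated libraries were lower. IFITM1, next to IFITM3 in function, had means of 0.0347 and 0.0138. The other 4 of the 7 recovered members overlapped, among them the transcription factor gene STAT2 (0.0172 and 0.0102 against 0.0146 and 0.0211) and IFIT3 (0.0133 and 0.0177 against 0.0289 and 0.0123).

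Regulators of the melanocyte lineage and neural crest were mixed, with 12 of 21 below the median gene. SNAI2 (NM_003068), a repressor that drives neural crest migration, had 0.0407 and 0.0290 in DMSO and 0.0097 and 0.0175 with leflunomide and was the 1 member at least 2-fold lower relative to the median gene. The neural crest factor genes FOXD3 (0.0991 and 0.0654 against 0.0611 and 0.0473), PAX3 (0.0488 and 0.0309 against 0.0258 and 0.0308) and TFAP2C (0.126 and 0.107 against 0.0898 and 0.0885) were lower in both libraries by smaller amounts, as was the inhibitor of differentiation gene ID3 (0.529 and 0.482 against 0.400 and 0.375). In contrast, the means of MITF, the master regulator of the melanocyte, were 0.0123 and 0.0226, and those of ZEB2, a repressor that accompanies MITF, 0.0119 and 0.0224. Neither was recovered in DMSO, so no spread can be given for these. Of the 15 recovered members 0 were higher in both leflunomide libraries (13.8% of all genes) and 6 lower (20.7%).

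A375 cells carry an active BRAF kinase, and the immediate early and feedback genes of the MAPK pathway report its output. Of 32 such gene bodies 17 lay above the median gene, with a median of 0.02. DUSP6, the ERK phosphatase gene, had 0.385 and 0.351 in DMSO and 0.422 and 0.481 with leflunomide. SPRY4, another feedback inhibitor, had 0.243 and 0.180 against 0.199 and 0.188, and the cyclin gene CCND1 had 0.204 and 0.180 against 0.182 and 0.153. Only DUSP6 of these had groups that did not overlap. EGR1 (0.0708 and 0.0287 against 0.0766 and 0.0795) and NR4A1 (0.0990 and 0.119 against 0.128 and 0.170), both immediate early transcription factors, were higher in both libraries, and FOSL2 (0.0247 and 0.0268 against 0.0162 and 0.0083) was lower. Their promoters had a median of 0.57 above the median gene, with 10 of 32 at least 2-fold higher (22% of all promoters) and 3 lower (19.7%). At the FOS promoter 0 and 1 reads in DMSO stood against 12 and 9 with leflunomide, and at SPRY4 11 and 6 reads stood against 29 and 13. The promoter median of the list lay between 0.01 and 0.75 when each library was left out, the former without DMSO library 2.

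A selection of the single genes with the smallest limma p among those whose libraries lay apart is given next, with the reservation that none passed adjustment. It does not include every gene of that ranking. On the higher side, MTCP1 (NM_001018025), a gene on the X chromosome activated by translocation in T cell leukaemia, had 0.0094 and 0.0150 in DMSO and 0.0477 and 0.0419 with leflunomide (limma log2 change 1.73, SE 0.34, unadjusted p = 0.00111, adjusted p = 0.627). MTCP1NB overlaps it and shares its reads. TIMM50, a subunit of the mitochondrial inner membrane translocase, had 0.0219 and 0.0260 against 0.0584 and 0.0531, and UGCG, which makes glucosylceramide, had 0.0148 and 0.0128 against 0.0326 and 0.0319. TIMP1 (NM_003254), a secreted inhibitor of matrix metalloproteinases, was the most strongly transcribed of this set, with 0.211 and 0.143 against 0.3543 and 0.3696 (limma 1.05, SE 0.29, unadjusted p = 0.00758, adjusted p = 0.999). At these 4 genes every treated library was above every control. IKZF2, a lymphoid zinc finger gene (0.0049 and 0.0040 against 0.0127 and 0.0168), COQ6, of coenzyme Q synthesis (0.0099 and 0.0138 against 0.0275 and 0.0298), and KIAA1919 (0.0084 and 0.0025 against 0.0217 and 0.0235) followed. Among coding genes of at least median density, PHLDA2, an imprinted growth-restraining gene, had 0.0751 and 0.0162 against 0.124 and 0.147, and the means of the hypoxia-linked genes BHLHE40 and SLC16A3 were 0.0501 and 0.135, and 0.0237 and 0.0653.

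On the lower side, LIPT2 (NM_001144869), of lipoic acid synthesis, had 0.0348 and 0.0344 in DMSO and 0.0092 and 0.0050 with leflunomide (limma −2.02, SE 0.36, unadjusted p = 0.000538, adjusted p = 0.551). C11orf91 (NM_001166692) had 0.0591 and 0.0585 against 0.0156 and 0.0169 (limma −1.73, SE 0.31, unadjusted p = 0.000638, adjusted p = 0.551). GSDMD, the pore-forming effector of pyroptosis, had 0.0403 and 0.0529 against 0.0135 and 0.0091, and NKX2-5, a cardiac homeobox gene, had 0.0800 and 0.127 against 0.0211 and 0.0305. All of these groups were well apart. TMEM198 had 0.0368 and 0.0202 against 0.0045 and 0.0049, and SNORD94, a box C/D RNA gene, 0.0833 and 0.110 against 0.0367 and 0.0239. The promoter log2 changes were 0.13 at LIPT2, 0.48 at C11orf91, 1.29 at NKX2-5 and 0.07 at TMEM198, so these promoters were not lower with the gene bodies, whereas those of GSDMD and SNORD94 were (−0.59 and −1.65). Promoter reads at these genes were few, at most 7 in any recovered library of LIPT2, NKX2-5 and TMEM198. The deposited entries hold no DMSO traveling ratio above 7.5, whereas 13.3% of entries exceed that value with leflunomide. With leflunomide the ratio was 13.2 at LIPT2, 12.9 at C11orf91, 19.2 at TMEM198 and 4.31 at NKX2-5. How far this limit shapes the contrast of promoter and gene body at these genes was not tested.

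The microRNA genes are short, and a gene body value there reads the primary transcript that runs across the hairpin, often that of a host gene. Of 333 past the filter 190 lay below the median gene, with a median of −0.11, and 32 were at least 2-fold higher (2.25% of all genes) and 49 lower (3.89%) relative to it. In 152 recovered genes the groups lay apart in the higher direction at 19 (12.5%, against 13.8% of all genes). They lay apart in the lower direction at 30 (19.7%, against 20.7%), so these shares were close to those of all genes. The mature products of 4 genes whose libraries lay apart are shown so that their seeds can be compared; capitals mark the seed, bases 2 to 8. The mature RNA of MIR3194 lies at chr20:51452912-51452933 (minus), that of MIR100 at chr11:122152275-122152296 (minus), that of MIR31 at chr9:21512158-21512178 (minus) and that of MIRLET7A1 at chr9:94175962-94175983 (plus) of GRCh38.p14, and the sequences are from RefSeq.
hsa-miR-3194-3p: aGCUCUGCugcucacuggcagu
hsa-miR-100-5p: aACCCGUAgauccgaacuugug
hsa-miR-31-5p: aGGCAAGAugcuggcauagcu
hsa-let-7a-5p: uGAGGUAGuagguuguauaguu
The 4 seeds differ from each other. MIR3194 had gene body densities of 0.0189 and 0.0104 in DMSO and 0.0525 and 0.0569 with leflunomide. MIR100, whose primary transcript is a long non-coding RNA, had 0.0574 and 0.0545 against 0.132 and 0.138, and MIR31 had 0.0536 and 0.0225 against 0.122 and 0.0797. The primary transcripts of these 3 were thus higher in both treated libraries, at log2 changes of means of 1.76, 1.24 and 1.36. MIRLET7A1, of the let-7 family that restrains growth genes such as RAS, had 0.132 and 0.0673 against 0.0225 and 0.0487, a log2 change of −1.43, and its cluster neighbour MIRLET7F1 had means of 0.104 and 0.0398. limma's unadjusted p was 0.00114 at MIR3194, 0.0234 at MIR100, 0.0672 at MIR31 and 0.0274 at MIRLET7A1, and the adjusted p was 0.627 at MIR3194 and 0.999 at the others.

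Promoter densities had a median log2 change of 0.22 over 8838 genes past the filter, and of 0 with no filter on low values. A promoter density of 0 was listed at 42.0% of entries in DMSO and 34.1% with leflunomide. A read was also worth more in the DMSO libraries (0.0438 and 0.0520) than with leflunomide (0.0347 and 0.0376). The effect of these differences on the counts below was not tested. The deposited entries hold no DMSO traveling ratio above 7.5, whereas leflunomide ratios do exceed it, and how far this shapes the promoter change was not tested. Relative to the median gene, a 2-fold or greater difference was seen upward at 1943 (22%) and downward at 1742 (19.7%). As deposited the counts were 2702 (30.6%) and 1417 (16%). In 5382 recovered genes both leflunomide libraries exceeded both DMSO libraries at 857 (15.9%) and lay below them at 560 (10.4%). limma called 0 of 4486 promoters, and its smallest adjusted p was 0.996. Without adjustment 76 (1.69%) were higher and 17 (0.379%) lower at p under 0.05. Without DMSO library 1 it called 22, all higher, so the calls rest on which DMSO library is used. The limma median promoter change was 0.25 with all libraries, 0.69 without DMSO library 1 and −0.19 without DMSO library 2.

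The single promoters given next were picked for their values in these same data, so their lying apart follows from the choice. limma called none of the promoters it fitted. PRNP (NM_001080123), the prion protein gene, had 1 read in each DMSO library and 18 and 16 with leflunomide, while its gene body densities of 0.161 and 0.168 against 0.201 and 0.188 were higher by 0.24 on the log2 scale. TFG, of protein export from the endoplasmic reticulum, had 5 and 1 reads against 23 and 18, and ADAM10, a cell surface protease gene, 4 and 0 against 16 and 11. MRPL18, a mitochondrial ribosomal protein gene, had 1 and 0 reads against 10 and 14. At these genes the treated counts exceeded the controls several times over, and the gene bodies of TFG and MRPL18 overlapped between groups. At the tubulin gene TUBA1C the reads were 29 and 16 in DMSO and 11 and 7 with leflunomide. At ARMC7 and BAG2, a cofactor of HSP70, 6 and 8 and 7 and 4 reads in DMSO stood against promoter means listed at 0 with leflunomide, while their gene body means were 0.0510 and 0.04995, and 0.0418 and 0.0318. ARHGAP19 was listed at 0 in DMSO and had 9 and 8 promoter reads with leflunomide. These reads are counts of recovered entries and carry counting error, and a count of 0 allows up to 3 reads.

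The traveling ratio was compared at 5173 genes and had a median log2 change of 0.27, with 1445 (27.9%) at least 2-fold higher and 792 (15.3%) lower as deposited. Relative to the median gene these counts were nearly even, at 1096 (21.2%) and 1077 (20.8%). When leflunomide ratios above 7.5 were left out as the DMSO ones are, the median was 0.05. Among promoters at or above the 75th percentile of density, the coding genes with the largest relative increases were ZFPL1 (6.35), MRPL18 (4.88, ratios of 0.890 and 31.7), the collagen receptor gene ITGA10 (4.45) and PHACTR4, which regulates protein phosphatase 1 (3.89, ratios of 2.14 and 38.3). At ITGA10 the gene body was also lower, with 0.0244 and 0.0381 in DMSO against 0.0135 and 0.0141. The lowest coding genes included SF3B2 (−5.27), SERTAD4 (−4.21) and the splicing factor gene USP39 (−4.12), whose promoter means with leflunomide were 0.0064, 0.0203 and 0.0211. In DMSO the promoter means of ZFPL1, MRPL18 and ITGA10 were 0.00265, 0.0219 and 0.0158. A single read in 1 library is worth 0.0438 or 0.0520 in DMSO and 0.0347 or 0.0376 with leflunomide, before averaging, so each of these ratios has about 1 read or less on its low side.

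**Figure D5:**
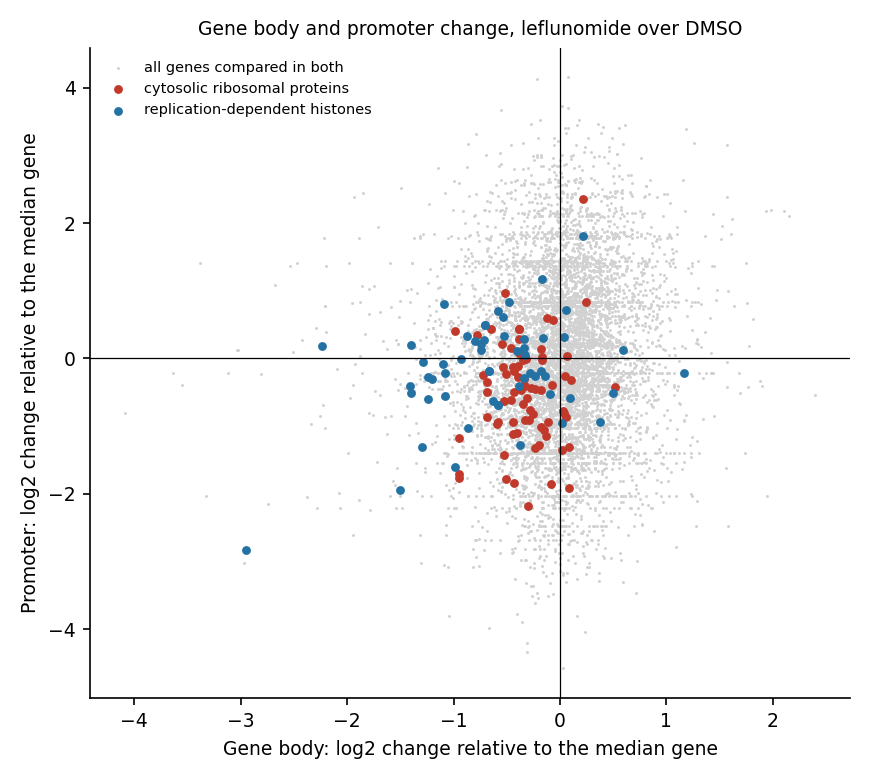
Each point is a gene past both filters; the x axis is the log2 change of gene body density and the y axis that of promoter density, leflunomide over DMSO, each relative to its median gene. Ribosomal protein genes (red) lie mostly in the lower left, with medians of −0.35 and −0.47, while histone genes (blue) are shifted left with promoters around the median gene (−0.58 and −0.19).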

How the data were processed

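Nascent RNA of 6 A375 samples was measured by GRO-seq. The submitters' processing notes name Bowtie 0.12.9, bedtools and the build hg18; for windows, scaling and gene annotation nothing is stated in the material used. The deposited promoter and gene body densities (a read signal per gene) and the deposited traveling ratio are, per the file headers, the authors' means over the 2 libraries of a group. Deposited fold changes were not used.

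Per symbol 1 entry was kept; 12360 symbols (99.4%) matched a RefSeq name. Genes under the 30th percentile of mean density were left out. Log2 ratios used pseudocounts of 0.0022 (gene body) and 0.01735 (promoter). Library values were solved from the sums p1 + p2 and g1 + g2 and the summed ratios on a grid of 4 decimals, with 1 solution for 11741 entries in DMSO (90.2%) and 13572 with leflunomide (93.6%). Only low nonzero solved promoter values were checked for whole reads (17227 in DMSO and 20862 with leflunomide). Of these 79.4% and 78.4% were whole multiples of 1 read, against 0.0058% and 0.0719% after a shift. Solving needs promoter reads, so solved genes are a selected set, and the libraries cannot be matched to the replicate letters. In simulated data 98.2% of 1000 entries gave 1 solution, 100% of them right. All simulated promoter values were whole reads at about the DMSO read values, unlike the solved ones, so this accuracy may not carry over to the real entries. limma 3.58.1 (R 4.3.3, trend and robust, Benjamini-Hochberg adjustment) was fitted to the log2 library densities of all 3 groups, which share the estimate of spread. Python 3.11.15 with numpy 2.4.6, pandas 2.3.3 and matplotlib 3.10.9 was used. Sequences came from RefSeq (GRCh38.p14); no coordinate was converted from hg18.

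The members and lists were chosen with earlier results of these data known. Named were the 12 coding genes at each end of gene body change, the 10 smallest limma p per direction, the 10 promoters, 8 ratios and 5 non-coding genes at each end, and up to 4 members per list. From these a selection is described, and further list members were picked as examples after their values were seen. Other filters, pseudocounts and the omission of each library were tried. A few genes are not reported here.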

Additional observations from a re-analysis of the deposited data

How the results depend on the processing

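Counts of genes past 2-fold are given here on the values as deposited, without centring on the median gene. Gene bodies at least 2-fold lower numbered 391, 613 with no filter and 239 with the filter at the 50th percentile, where 106 were higher in place of 160. Pseudocounts 5 times as large gave 51 higher and 187 lower. For promoters the stricter filter gave 1667 higher and 819 lower (2702 and 1417 with the filter used), and the larger pseudocount 614 and 270. With the DMSO limit on the ratio applied to leflunomide, 935 traveling ratios were at least 2-fold higher in place of 1445. limma called between 0 and 22 promoters when each library was left out, the 22 without DMSO library 1, and 0 gene bodies throughout. Its median gene body change, −0.04, ranged from −0.15 to 0.03, and its median promoter change, 0.25, from −0.19 to 0.69. The histone promoter median, −0.19, was 0.028 with no filter and ranged from −0.46 (without DMSO library 1) to 0.29 (without leflunomide library 1), with 0.0045 without leflunomide library 2. The box C/D gene body median, −0.28, ranged from −0.45 (without leflunomide library 2) to 0.022 (without leflunomide library 1). The cause was not tested. Gene body medians of ribosomal proteins (−0.38 to −0.28), histones (−0.79 to −0.39), H/ACA RNAs (−0.47 to −0.14) and DNA replication genes (0.12 to 0.42) kept their sign when each library was left out. Omission of libraries was planned for limma and added for the list medians after seeing the data. No paired analysis was possible because the recovered libraries cannot be matched to the replicate letters a and b. Promoters hold few reads, which limits single promoters most.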
